A study of Mus musculus with 12 samples.

Results

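Tumor necrosis factor (TNF) receptors, the TRAF adaptors that bind their tails and the ubiquitin ligase Birc3 were followed in cardiomyocytes exposed to cytokines of the interleukin-6 family. The 10 genes were chosen by symbol, and each had a single row among the 22915 genes of the table, so that all 10 of 10 were found. They are the receptors Tnfrsf12a, Tnfrsf1b, Cd40, Ltbr, Tnfrsf1a, Tnfrsf21 and Fas, the adaptors Traf2 and Traf3, and Birc3. The cells were adult primary cardiomyocytes of male C57/Bl6 mice aged 12 weeks, kept in normoxia and harvested for RNA 24 h after the addition of PBS, mLIF, mOSM or hlOSM. Each condition had 3 libraries, 12 in all. The ligand mLIF (murine leukemia inhibitory factor) signals through its receptor LIFR, and mOSM (murine oncostatin M) signals through OSMR. The third ligand, hlOSM, is an engineered murine oncostatin M that carries the AB loop of the human protein and engages both receptors. The labels give a cytokine dose of 25 ng/mL, whereas the paper's methods give a lower one. Whether the 3 libraries of a condition came from separate mice or cell preparations is not stated in the labels, so the p-values measure the spread between these libraries only. Isolated cardiomyocytes are not free of other cell types, and the level of a transcript in such a culture is a sum over all cells in it.

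Receptors of the TNF superfamily are trimers at the cell surface that have no enzyme activity of their own. Receptors with a death domain recruit death-domain adaptors such as TRADD and FADD, and can lead to gene activation or to cell death through caspase-8 or RIPK kinases. Receptors without a death domain bind TRAF proteins directly. TRAF2 brings the ubiquitin ligases cIAP1 (Birc2) and cIAP2 (Birc3) to the receptor, and their ubiquitin chains open the canonical NF-kB route. In resting cells, TRAF2, TRAF3 and the cIAPs keep the kinase NIK low, and ligands of LTBR, CD40 or Fn14 (the product of Tnfrsf12a) release it to start the non-canonical route. In the heart, TNF receptors and Fn14 are known for their part in cardiomyocyte stress responses and remodeling, and oncostatin M is known as a driver of cardiomyocyte dedifferentiation.

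Values are normalized counts per gene as the authors gave them, in whole numbers and with no correction for gene length. The method of normalization is not stated. Within a library the values add up to between 2745748 and 2911891, which is not the number of reads. The paper's methods give an average read number per library, and the depth of each library is unknown. Changes are differences of log2(normalized count + 1) with their standard error (SE), from a limma fit of all 12 libraries over 13184 genes, and a gene was called changed where its two-sided p, adjusted after Benjamini and Hochberg over all of these genes, was under 0.05. Adding 1 slightly understates the changes of low genes. The 3 cytokines were compared with the same 3 PBS libraries, so the comparisons are not independent of each other. Libraries that share a replicate number had almost no deviation in common: the number held 1.7% of the spread within conditions over the 13184 genes, where 25% would be its share without any effect of the number. The fit without a block nevertheless counts the 2 degrees of freedom of the number among its 8 residual ones, so its SEs and adjusted p tend to be smaller than those of a fit with the number as a block. For the change with mOSM, the SEs of the 9 genes tested were 1.05 to 1.20 times as large with the block. For each gene named, the blocked value is given where it ends a reported call. For a count over a list, the blocked count is given where it differs. Of the 10 genes, 9 passed the filter on low values and Cd40 did not.

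Tnfrsf1a, Ltbr and Tnfrsf21 were the receptors whose transcripts were higher with mOSM and with hlOSM than with PBS, and their promoter sequences are therefore shown. They were taken from RefSeq on GRCm38.p6, the assembly of mm10, read 5′ to 3′ on the strand of the gene up to the base before its RefSeq start. Of the 10 genes, 9 had a promoter entry. Capitals mark matches, on either strand, to the STAT motif TTCNNNGAA, the NF-kB motif (GGG, any pair of bases, then TTTCC) or the AP-1 motif TGANTCA. For Tnfrsf1a, the RefSeq start lies 361 bp downstream of the start of the gene in the table, so that its window lies within the annotated gene, and the part outside annotated exons is given (chr6:125349509-125349722, plus strand). Ltbr is given over 250 bases (chr6:125313886-125314135, minus strand), as is Tnfrsf21 (chr17:43016305-43016554, plus strand).
Tnfrsf1a: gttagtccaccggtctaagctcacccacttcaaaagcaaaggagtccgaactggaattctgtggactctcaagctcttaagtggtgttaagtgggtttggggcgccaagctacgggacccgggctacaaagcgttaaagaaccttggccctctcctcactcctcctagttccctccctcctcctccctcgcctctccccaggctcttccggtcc
Ltbr: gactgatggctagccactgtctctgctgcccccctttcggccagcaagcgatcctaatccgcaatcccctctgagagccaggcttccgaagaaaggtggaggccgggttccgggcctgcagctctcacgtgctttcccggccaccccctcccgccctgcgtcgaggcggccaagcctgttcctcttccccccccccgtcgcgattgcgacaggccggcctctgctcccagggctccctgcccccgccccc
Tnfrsf21: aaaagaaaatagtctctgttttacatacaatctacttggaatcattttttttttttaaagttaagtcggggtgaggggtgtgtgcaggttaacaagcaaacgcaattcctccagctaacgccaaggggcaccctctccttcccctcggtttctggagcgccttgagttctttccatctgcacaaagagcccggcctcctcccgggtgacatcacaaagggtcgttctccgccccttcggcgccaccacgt

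None of these 3 stretches held a match to any of the motifs. A STAT match stood in the windows of 3 of the 9 genes with an entry, Tnfrsf1a, Tnfrsf1b and Fas, and each is given with up to 10 bases on either side. It began 244 bases before the RefSeq start in Tnfrsf1a (chr6:125349473-125349497, plus strand), within the 36 bases of its window that belong to an annotated exon, 181 bases before it in Tnfrsf1b (chr4:145247033-145247061, minus strand) and 93 bases before it in Fas (chr19:34290556-34290584, plus strand).
Tnfrsf1a: gcttccTTCCGTGAAattgacaaca
Tnfrsf1b: agcgcattcaTTCCCGGAAgagatgctgg
Fas: tcaaagcgatTTCTGGGAAgacctgaata

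Among 32851 promoters of the same 250 bases, 7.02% held a STAT match, 1.41% an NF-kB match and 6.75% an AP-1 match. Fas also held an AP-1 match, and Traf3 an NF-kB match, in windows not shown. The genes with a STAT match moved differently: Tnfrsf1a was raised by each cytokine, Fas was lowered with hlOSM and Tnfrsf1b was called in no comparison. A match describes letters only, and binding was not measured.

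**Figure D1:**
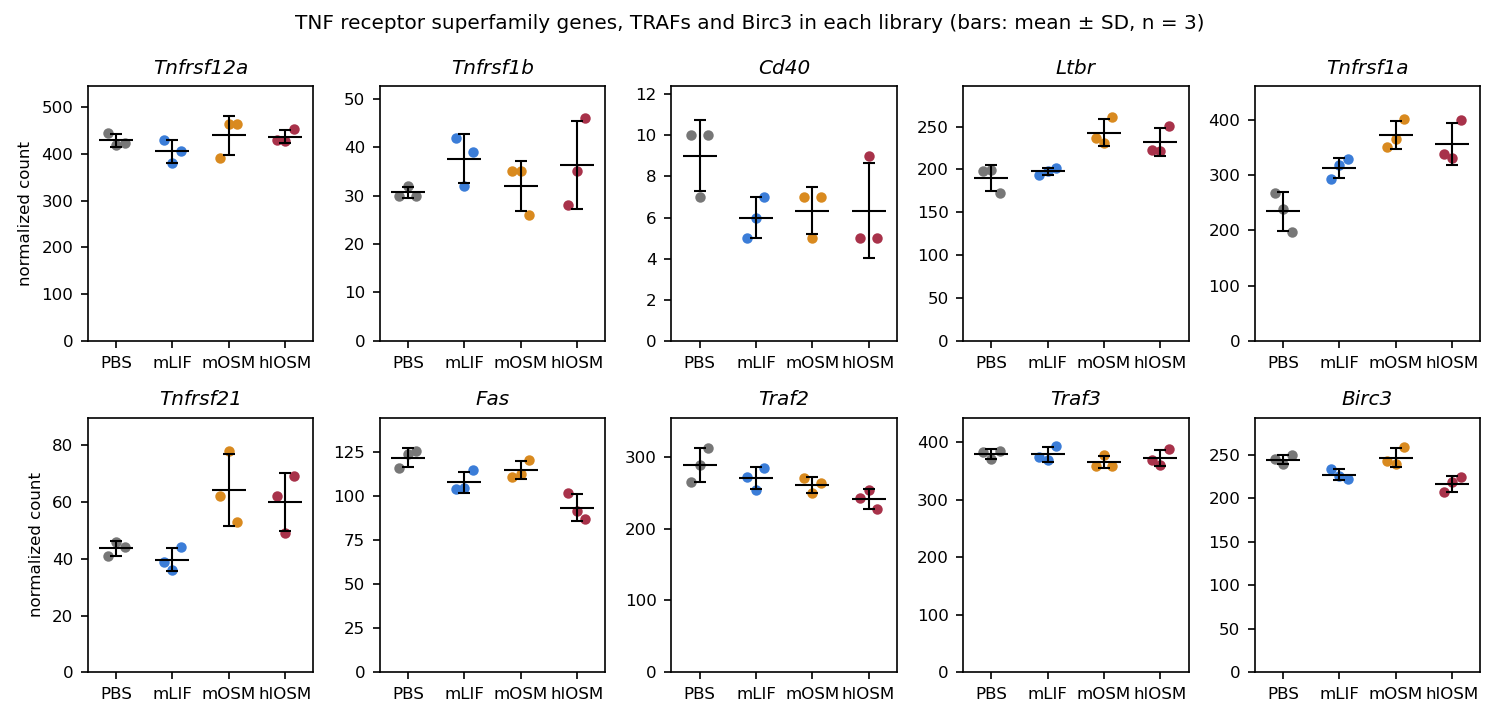
Normalized count (vertical axis, from 0) of each of the 10 genes in every library of the 4 conditions; points are libraries and black bars the mean ± SD of 3 libraries. Tnfrsf1a lies between 197 and 267 in PBS and between 331 and 401 in mOSM and hlOSM, whereas Tnfrsf12a stays between 381 and 465 throughout.

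Compared per exonic length, Tnfrsf12a had the highest level of the 10 genes in every condition. In PBS it stood at 222 ± 7.25 normalized counts per kb of exon (SD, n = 3), followed by Tnfrsf1a at 90.4 ± 13.6 and Ltbr at 80.7 ± 6.26. The libraries of Tnfrsf1a and Ltbr overlapped in PBS, so this pair could not be ordered there, but they did not overlap in mLIF, mOSM or hlOSM. Fas at 59.2 ± 2.57, Traf2 at 56.6 ± 4.61, Traf3 at 51.6 ± 1.11 and Birc3 at 48.9 ± 1.10 lay close together in PBS. Within this group Fas overlapped Traf2 and Traf2 overlapped Traf3, whereas Traf3 and Birc3 did not overlap. Tnfrsf21 at 10.6 ± 0.612 and Tnfrsf1b at 8.03 ± 0.302 were lower, and Cd40 was lowest at 2.64 ± 0.509. With hlOSM, Fas moved from rank 4 to rank 6, below Traf3 and Traf2, although its libraries overlapped those of both. Tnfrsf21 and Tnfrsf1b overlapped in mLIF and hlOSM and not in PBS or mOSM.

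**Figure D2:**
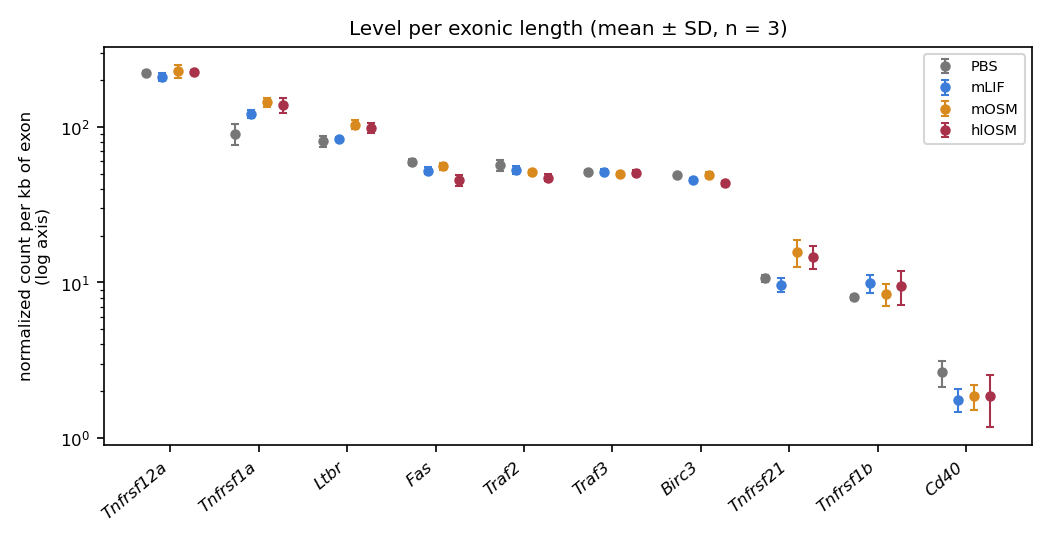
Normalized count per kb of exon (logarithmic vertical axis) of the 10 genes, ordered by their level in PBS; points are the mean and bars the SD of 3 libraries per condition. Tnfrsf12a stands highest at 222 and Cd40 lowest at 2.64 in PBS.

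Among the receptors without a death domain, Tnfrsf12a encodes Fn14, the receptor of the cytokine TWEAK. Its normalized counts were 445, 419 and 423 in PBS, 429, 381 and 406 in mLIF, 391, 465 and 463 in mOSM, and 430, 427 and 453 in hlOSM (mm10 chr17:23675445-23677468, minus strand). The 4 conditions overlapped. Its log2 change against PBS was −0.08 ± 0.07 (SE) in mLIF (adjusted p = 0.472), 0.03 ± 0.07 in mOSM (adjusted p = 0.766) and 0.03 ± 0.07 in hlOSM (adjusted p = 0.798). The 95% interval of the change with mOSM ran from −0.11 to 0.17, so a rise of the size seen in Ltbr lay outside it. The 5 genes whose log2 values followed those of Tnfrsf12a most closely over the 12 libraries, among 8669 genes searched, were Arpc2, Sf3b1, Snf8, Psmc5 and Pomp. Their Pearson correlations were 0.902, 0.886, 0.882, 0.876 and 0.860, given as a description over libraries that share their normalization.

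Ltbr, the lymphotoxin beta receptor, rose with mOSM and with hlOSM. Its normalized counts were 198, 199 and 173 in PBS, 194, 198 and 202 in mLIF, 237, 231 and 261 in mOSM, and 223, 222 and 251 in hlOSM (mm10 chr6:125306571-125313885, minus strand). Every mOSM and hlOSM library was above every PBS and mLIF library. The log2 change against PBS was 0.35 ± 0.08 with mOSM (adjusted p = 0.0011) and 0.29 ± 0.08 with hlOSM (adjusted p = 0.00498). Both calls held under all 21 alternatives. With mLIF the change was 0.06 ± 0.08 (adjusted p = 0.652, interval −0.10 to 0.22). The rise over mLIF was 0.29 ± 0.08 with mOSM (adjusted p = 0.0124) and 0.23 ± 0.08 with hlOSM (adjusted p = 0.0463). The former missed the threshold without mLIF replicate 1 (adjusted p = 0.0558) or without mOSM replicate 3 (adjusted p = 0.068). The latter was lost with the replicate number as a block (adjusted p = 0.0978) and in 9 of 12 fits that left out a library (all but PBS replicate 3 and mOSM replicates 2 and 3), with adjusted p up to 0.186 without hlOSM replicate 3. As these are bulk samples, fewer cells of a type and less RNA per cell cannot be told apart here or in any result that follows.

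Tnfrsf1b, the TNF receptor of more restricted expression, and Cd40, the receptor of CD40 ligand, were low. Tnfrsf1b had 30, 32 and 30 normalized counts in PBS, 42, 32 and 39 in mLIF, 35, 35 and 26 in mOSM, and 28, 35 and 46 in hlOSM (mm10 chr4:145213463-145246870, minus strand). The conditions overlapped, and the intervals were wide: the change with mLIF was 0.28 ± 0.18 with a 95% interval of −0.09 to 0.65. Its adjusted p was 0.341 for mLIF, 0.871 for mOSM and 0.383 for hlOSM. Cd40 had 10, 7 and 10 normalized counts in PBS and between 5 and 9 in the 9 libraries with a cytokine (mm10 chr2:165055627-165072948, plus strand). When no filter was applied it was not called (adjusted p = 0.443 in mLIF, 0.428 in mOSM and 0.358 in hlOSM), and a change in Cd40 was not detectable at these values.

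Among the receptors with a death domain, Tnfrsf1a, the widely expressed TNF receptor, had the largest changes against PBS of the 9 genes tested, and it was the sole one called with mLIF. Its normalized counts were 267, 239 and 197 in PBS, 292, 317 and 328 in mLIF, 351, 364 and 401 in mOSM, and 338, 331 and 400 in hlOSM (mm10 chr6:125349362-125362484, plus strand). All 9 libraries with a cytokine were above all 3 PBS libraries, and the mOSM and hlOSM libraries were also above those of mLIF. The log2 change against PBS was 0.42 ± 0.09 with mLIF (adjusted p = 0.0055), 0.67 ± 0.09 for mOSM (adjusted p = 6.31e-06) and 0.61 ± 0.09 for hlOSM (adjusted p = 1.75e-05). Each of these 3 calls held under all 21 alternatives. The further difference between mOSM and mLIF was 0.25 ± 0.09 (adjusted p = 0.0838), which passed without PBS replicate 3 (adjusted p = 0.0321) and in the fit of the libraries compared alone (adjusted p = 0.0155). Between hlOSM and mLIF it was 0.19 ± 0.09 (adjusted p = 0.189).

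Ltbr and Tnfrsf1a are neighbors on chromosome 6, transcribed away from each other with 35476 bp between them. The one gene of the table that lies between them is Scnn1a, a subunit of the epithelial sodium channel, at 17 to 29 normalized counts in PBS, 5 to 14 in mLIF, 12 to 23 in mOSM and 12 to 19 in hlOSM. Scnn1a, which was picked for its place, thus did not show the pattern of higher mOSM and hlOSM libraries seen on either side of it.

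Tnfrsf21, which encodes the death receptor DR6, also rose with mOSM and hlOSM. It had 41, 46 and 44 normalized counts in PBS, 39, 36 and 44 in mLIF, 62, 78 and 53 in mOSM, and 62, 49 and 69 in hlOSM (mm10 chr17:43016555-43089189, plus strand). The mOSM and hlOSM libraries were all above those of PBS and mLIF. The log2 change against PBS was 0.53 ± 0.15 with mOSM (adjusted p = 0.00981), 0.44 ± 0.15 with hlOSM (adjusted p = 0.0269) and −0.14 ± 0.15 with mLIF (adjusted p = 0.604). Against mLIF it was 0.67 ± 0.15 with mOSM (adjusted p = 0.00419) and 0.58 ± 0.15 with hlOSM (adjusted p = 0.0106). The call with mOSM against PBS was lost without mOSM replicate 2, its highest library (adjusted p = 0.0837). The call with hlOSM was lost with the replicate block (adjusted p = 0.0585) and without PBS replicate 1 (0.0801), PBS replicate 3 (0.0524), hlOSM replicate 1 (0.0784) or hlOSM replicate 3 (0.139). The call of hlOSM against mLIF was lost without mLIF replicate 2 (adjusted p = 0.0575) or hlOSM replicate 3 (adjusted p = 0.0653).

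Fas, the receptor of Fas ligand, fell with hlOSM. Its normalized counts were 116, 124 and 126 in PBS, 104, 105 and 115 in mLIF, 111, 113 and 121 in mOSM, and 102, 92 and 87 in hlOSM (mm10 chr19:34290666-34327772, plus strand). The hlOSM libraries were below all others. The log2 change against PBS was −0.38 ± 0.09 with hlOSM (adjusted p = 0.00204), −0.17 ± 0.09 with mLIF (adjusted p = 0.229) and −0.08 ± 0.09 with mOSM (adjusted p = 0.517), and the call with hlOSM held under all 21 alternatives. The direct difference between hlOSM and mOSM was −0.30 ± 0.09, with an adjusted p of 0.385, so a fall particular to hlOSM was not established.

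Below the receptors, Traf2 and Birc3 were lower with hlOSM, and Traf3 was not called. Traf2 had 265, 289 and 312 normalized counts in PBS, 272, 254 and 284 in mLIF, 270, 249 and 263 in mOSM, and 242, 254 and 227 in hlOSM (mm10 chr2:25517982-25546940, minus strand). PBS and hlOSM did not overlap. The log2 change of Traf2 with hlOSM was −0.26 ± 0.07 (adjusted p = 0.00744), which missed the threshold without PBS replicate 3, the highest PBS library (adjusted p = 0.0532). With mOSM it was −0.14 ± 0.07 (adjusted p = 0.139) and with mLIF −0.09 ± 0.07 (adjusted p = 0.438).

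Traf3, the adaptor that marks NIK for degradation, had 383, 370 and 385 normalized counts in PBS, 373, 369 and 393 in mLIF, 358, 377 and 359 in mOSM, and 369, 360 and 388 in hlOSM (mm10 chr12:111166370-111267153, plus strand). All conditions overlapped, and the 95% intervals of its 3 changes against PBS lay between −0.18 and 0.12.

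Birc3 had 245, 239 and 250 normalized counts in PBS, 234, 226 and 222 in mLIF, 243, 239 and 259 in mOSM, and 207, 219 and 225 in hlOSM (mm10 chr9:7848699-7873186, minus strand). The hlOSM and the mLIF libraries were below those of PBS and mOSM, and they overlapped each other. The change with hlOSM was small, −0.17 ± 0.07 on the log2 scale (adjusted p = 0.0411). It was lost with the replicate block (adjusted p = 0.092) and in 10 of the 21 alternatives in all. Leaving out any PBS library (adjusted p = 0.0912, 0.0583 and 0.112 for replicates 1, 2 and 3), hlOSM replicate 1 (0.154) or 2 (0.0723), or mLIF replicate 1 (0.05) or 2 (0.0544) ended the call. With mLIF the change of Birc3 against PBS was −0.11 ± 0.07 (adjusted p = 0.319) and with mOSM 0.01 ± 0.07 (adjusted p = 0.905). The direct difference between hlOSM and mOSM was −0.19 ± 0.07 (adjusted p = 0.472), and between hlOSM and mLIF −0.07 ± 0.07 (adjusted p = 0.559). A fall particular to hlOSM was thus not established. Birc2, the closest relative of Birc3 and its neighbor at a distance of 11634 bp on chromosome 9, fell with mOSM by 0.30 on the log2 scale (adjusted p = 0.00103) and with hlOSM by 0.36 (adjusted p = 0.000121), and had −0.10 ± 0.06 with mLIF (adjusted p = 0.364).

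**Figure D3:**
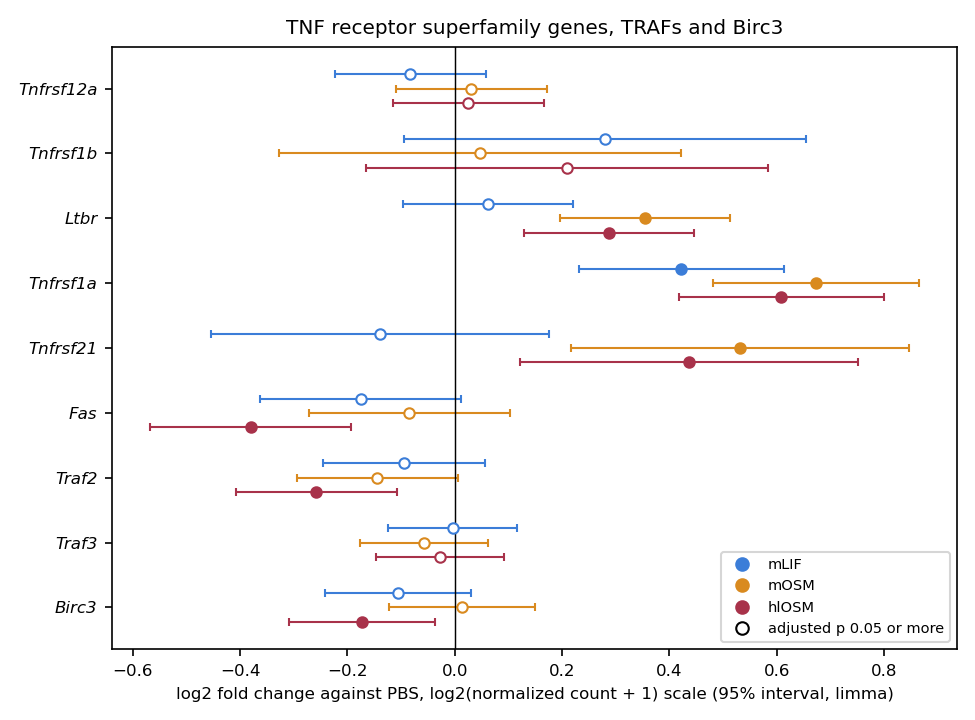
Log2 fold change against PBS (horizontal axis) of the 9 genes tested, with its 95% interval, for mLIF, mOSM and hlOSM; filled points have an adjusted p under 0.05. Tnfrsf1a is filled for all 3 cytokines, at 0.42, 0.67 and 0.61, Ltbr and Tnfrsf21 for mOSM and hlOSM, and Fas, Traf2 and Birc3 for hlOSM.

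Counted over the 9 genes tested, 1 was raised and 0 were lowered with mLIF, where 5.47% of all 13184 genes were raised and 4.44% lowered. With mOSM, 3 were raised and 0 lowered, against 15.4% and 15.8% of all genes. With hlOSM, 3 were raised and 3 lowered, against 18.2% and 19.8% of all genes, and the count of 6 was 4 with the replicate block and 3 without PBS replicate 3. The median log2 change of the 9 genes was −0.08 for mLIF, 0.03 for mOSM and 0.03 for hlOSM, where the median of all genes was 0.00037, −0.0043 and −0.0052. With so few genes, counts near these shares give no result about the group as a whole. An unadjusted p under 0.05 was found for 1, 3 and 6 of the 9 genes, in the same order of cytokines. Among all 13184 genes it was found for 3383, 5416 and 6136.

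Directly compared with mLIF, mOSM raised 2 of the 9 genes (Ltbr and Tnfrsf21) and lowered 0, where 6.05% of all genes were raised and 5.76% lowered. The count was 1 without mLIF replicate 1 or without mOSM replicate 3. For hlOSM against mLIF the same 2 genes were raised and 0 lowered, against 7.42% and 9.22% of all genes. The count was 1 with the replicate block, and 0 without mLIF replicate 2 or without hlOSM replicate 3. Between hlOSM and mOSM, limma called 0 of the 9 genes, and 0.106% of all genes in either direction. An unadjusted p under 0.05 was found there for 2 of the 9 genes, Fas and Birc3, both with lower values in hlOSM, and for 987 of all 13184 genes. The interaction asks whether the step from mOSM to hlOSM equals the step from PBS to mLIF. This would compare LIFR with and without OSMR only if hlOSM drove each receptor as strongly as mOSM and mLIF do. That was not tested here, and a difference in potency could give the same values. The interaction was called for 0 of the 9 genes in limma and for 0.167% of all genes. The one gene of the 9 with an unadjusted p under 0.05 was Tnfrsf1a, at −0.49 ± 0.13 (adjusted p = 0.125), which passed without PBS replicate 1 (adjusted p = 0.0287) or without hlOSM replicate 3 (adjusted p = 0.0327). Among all 13184 genes, 1521 had an unadjusted p under 0.05 for the interaction.

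Cardiomyocyte markers had the highest summed level of the 5 marker lists in every library, as the label of the cells requires, but several lists moved with the conditions. The summed level of 8 cardiomyocyte markers ranged from 48201 to 50117 in PBS, 41849 to 43641 in mLIF, 33853 to 37907 in mOSM and 34690 to 37137 in hlOSM. Most of this sum was the long gene Ttn, whose mean was 32924 of 48956 without cytokine and 22907 of 35561 after mOSM. The sum therefore mainly follows Ttn, and a sum without it was not computed. After mLIF, 6 of the 8 markers were lowered (4 with the replicate block), where 4.44% of all genes were lowered. Of these 8, 7 were lowered with mOSM and 7 with hlOSM. Of all genes, 15.4% were raised and 15.8% lowered with mOSM, and 18.2% and 19.8% with hlOSM. Of 8 endothelial markers, 6 were raised with mOSM and 6 with hlOSM (5 with hlOSM under the replicate block), and 1 was lowered with mLIF. Their sum went from 1188 to 1262 in PBS to 1201 to 1266 in mLIF, 1471 to 1700 in mOSM and 1477 to 1590 in hlOSM. The sum of 8 mural cell markers fell from 1048 to 1296 in PBS to 968 to 1023 in mLIF, 729 to 782 in mOSM and 662 to 693 in hlOSM. The 8 fibroblast markers summed to 2296 to 2526 in PBS, 2110 to 2251 in mLIF, 2459 to 2885 in mOSM and 2307 to 2540 in hlOSM, with members that went in opposite directions (2 raised and 3 lowered with mOSM, 3 raised and 5 lowered with hlOSM). With the replicate block, the 3 raised with hlOSM were 2. The 8 leukocyte markers summed to 309 to 335 in PBS, 288 to 327 in mLIF, 353 to 393 in mOSM and 328 to 399 in hlOSM. Of the 6 tested, 1 was raised and 1 lowered with mOSM and with hlOSM (0 lowered with mOSM under the replicate block). The raised marker was Cd68, and without it the sum was 248 to 295, 218 to 239, 241 to 250 and 219 to 243, an alternative chosen after the values were seen. No marker of these lists was at 0 throughout. The endothelial sum was thus higher with mOSM and hlOSM, as were Ltbr, Tnfrsf1a and Tnfrsf21. The leukocyte sum that includes Cd68 was also higher with mOSM. With mLIF, where Tnfrsf1a was raised, the endothelial sum overlapped that of PBS. Cd68, like Tnfrsf1a, was higher in every library with a cytokine than in every PBS library. The part of cell composition in these changes was not tested.

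Ligands of these receptors had low values in the culture. Tnf, the ligand of the Tnfrsf1a and Tnfrsf1b products, had at most 6 normalized counts in any library, Tnfsf12 (TWEAK) at most 9 and Fasl at most 2. Of the exonic bases of Tnfsf12, 48.3% are shared with Tnfsfm13 on the same strand. Reads that overlap several genes were not counted, so the value of Tnfsf12 can be too low. Cd40lg has no row in the table used here. Of 18 ligand genes listed, 14 had a row and 7 passed the filter on low values. With mLIF 0 of these 7 were called, where 5.47% of all genes were raised and 4.44% lowered. With mOSM 2 were raised and 2 lowered (1 lowered with the replicate block), and with hlOSM 2 were raised and 0 lowered. Of all genes, 15.4% were raised and 15.8% lowered with mOSM, and 18.2% and 19.8% with hlOSM. The 2 raised ligands were Tnfsf8 and Tnfsf11, at 0 or 1 in every PBS and mLIF library. They passed the filter through their mOSM and hlOSM libraries alone, so a call as raised was all but set by the filter.

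Of the other receptors of the superfamily, 16 of 21 listed genes had a row and 7 were tested. With mLIF 0 were called, where 5.47% of all genes were raised and 4.44% lowered. With mOSM and with hlOSM 5 of 7 were raised and 0 lowered. The raised genes were Tnfrsf23 and, outside the rule for naming genes given below, Tnfrsf11b, Tnfrsf22, Tnfrsf26 and Relt. Apart from Tnfrsf23, they had at most 53 normalized counts in any library. Tnfrsf22, at 8, 9 and 4 in PBS, passed the filter through its cytokine libraries alone, so the filter favored a call as raised. Of all genes, 15.4% were raised and 15.8% lowered with mOSM, and 18.2% and 19.8% with hlOSM. The median log2 change was 0.32 for mLIF, 0.86 for mOSM and 0.90 for hlOSM. Tnfrsf23, a decoy receptor for the death ligand TRAIL, had 137, 97 and 60 normalized counts in PBS, 119, 133 and 140 in mLIF, 176, 213 and 228 in mOSM, and 194, 200 and 325 in hlOSM. It lies with Tnfrsf22 and Tnfrsf26 in a cluster of closely related genes on chromosome 7. Reads that align to several of them were not counted, so the level of Tnfrsf23 is uncertain. The log2 change of Tnfrsf23 was 1.13 ± 0.20 with mOSM (adjusted p = 0.00014) and 1.32 ± 0.20 with hlOSM (adjusted p = 1.78e-05). With mLIF it was 0.49 ± 0.20 (adjusted p = 0.126), which passed without PBS replicate 1 (adjusted p = 0.00834).

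**Figure D4:**
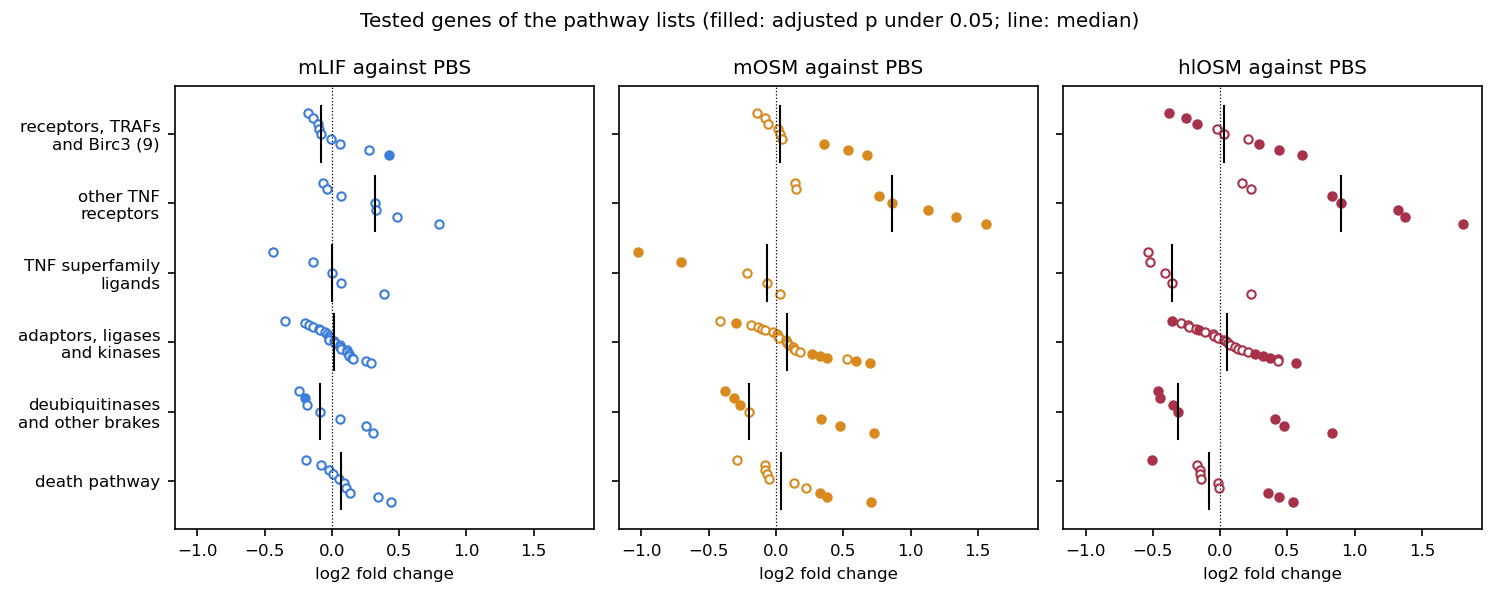
Log2 fold change against PBS (horizontal axis) of the tested genes of 6 groups (rows) with mLIF, mOSM and hlOSM; filled points have an adjusted p under 0.05, and vertical lines are the median of the tested genes. Tnfsf8 and Tnfsf11, at 0 in PBS, are not drawn. The other TNF receptors have medians of 0.32, 0.86 and 0.90, and the receptors, TRAFs and Birc3 have medians of −0.08, 0.03 and 0.03.

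Of 24 adaptors, ubiquitin ligases and kinases that act below the receptors, all 24 were tested. With mLIF 0 were called, where 5.47% of all genes were raised and 4.44% lowered. With mOSM 5 were raised and 1 lowered, and with hlOSM 5 were raised and 2 lowered. Of all genes, 15.4% were raised and 15.8% lowered with mOSM, and 18.2% and 19.8% with hlOSM. The 5 raised genes were 3 with mOSM and 2 with hlOSM when the replicate number was a block. The median log2 changes were 0.02, 0.08 and 0.05. Traf7, a TRAF relative with a WD40 domain, rose by 0.38 ± 0.08 with mOSM (adjusted p = 0.000822) and 0.37 ± 0.08 with hlOSM (adjusted p = 0.000795). Rnf31, the catalytic subunit of the linear ubiquitin ligase complex, rose by 0.33 ± 0.11 with mOSM (adjusted p = 0.0228) and 0.43 ± 0.11 with hlOSM (adjusted p = 0.00288). The call of Rnf31 with mOSM was lost without PBS replicate 1 (adjusted p = 0.085), PBS replicate 2 (0.0891) or mOSM replicate 1 (0.165). Sharpin, another subunit of that complex, was called with hlOSM alone (0.32 ± 0.12, adjusted p = 0.0449), and this was lost with the replicate block (adjusted p = 0.0806) and without any of 5 libraries (PBS replicates 1 and 2, mLIF replicate 2, hlOSM replicates 2 and 3), with adjusted p of 0.052 to 0.202. Traf1, the nearest relative of Traf2, was low, with 3 to 16 normalized counts over the 12 libraries, and was not called.

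Of 7 deubiquitinases and other brakes of the pathway that were tested, 3 were raised and 3 lowered with mOSM, and 3 were raised and 4 lowered with hlOSM. Of all genes, 15.4% were raised and 15.8% lowered with mOSM, 18.2% and 19.8% with hlOSM, and 5.47% and 4.44% with mLIF. With the replicate block, the 3 lowered with mOSM were 2. With mLIF 0 were raised and 1, Cyld, was lowered, and this call was lost with the replicate block (adjusted p = 0.0672) and without PBS replicate 3 (0.166) or mLIF replicate 1 (0.0546), 2 (0.0799) or 3 (0.13). The median log2 changes were −0.08, −0.20 and −0.32 for mLIF, mOSM and hlOSM. Cyld, which removes the ubiquitin chains built at TNF receptors, fell by 0.20 after mLIF (adjusted p = 0.0298), by 0.38 after mOSM (adjusted p = 3.03e-05) and by 0.45 after hlOSM (adjusted p = 2.62e-06) on the log2 scale. Tnfaip3 (A20), a ubiquitin-editing brake and a target gene of NF-kB, had 131, 125 and 127 normalized counts in PBS, 108, 110 and 105 in mLIF, 99, 102 and 107 in mOSM, and 90, 89 and 99 in hlOSM. All libraries with a cytokine were below those of PBS. The change with mLIF was −0.24 ± 0.09 (adjusted p = 0.0732), which passed with quantile normalization (adjusted p = 0.033). Tnfaip3 fell by 0.31 with mOSM (adjusted p = 0.00752) and by 0.46 with hlOSM (adjusted p = 0.000198). Otulin, which cuts linear chains, rose by 0.48 ± 0.09 with mOSM (adjusted p = 0.0002) and 0.47 ± 0.09 with hlOSM (adjusted p = 0.000188), and Tnip2, a binding partner of A20, by 0.33 ± 0.10 (adjusted p = 0.00975) and 0.40 ± 0.10 (adjusted p = 0.00186). The call of Tnip2 with mOSM was lost without PBS replicate 1 (adjusted p = 0.0534).

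Of 10 genes of the death pathway, 10 were tested. With mLIF 0 were called, where 5.47% of all genes were raised and 4.44% lowered. With mOSM 3 were raised and 0 lowered, and with hlOSM 3 were raised and 1 lowered. Of all genes, 15.4% were raised and 15.8% lowered with mOSM, and 18.2% and 19.8% with hlOSM. With the replicate block, the 3 raised with mOSM were 2. The median log2 changes were 0.07, 0.04 and −0.08. Cflar, the caspase-8 relative that restrains death receptors, had 569, 612 and 561 normalized counts in PBS and 610, 603 and 640 in mLIF. With mOSM it had 779, 730 and 760, and with hlOSM 717, 710 and 798, all above PBS and mLIF. Its log2 change was 0.38 ± 0.06 with mOSM (adjusted p = 2.23e-05) and 0.35 ± 0.06 with hlOSM (adjusted p = 4.56e-05). Mlkl, the executor of necroptosis, fell with hlOSM by 0.51 on the log2 scale (adjusted p = 0.00236) and had −0.29 ± 0.12 with mOSM (adjusted p = 0.0763), which passed without mOSM replicate 3 (adjusted p = 0.00571).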

How the data were processed

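RNA of primary cardiomyocytes was sequenced from 12 libraries, 3 per condition, which were grouped by their titles. Reads were trimmed by the authors, mapped to mm10 with STAR 2.7.7a, and those assigned to a single gene were counted with featureCounts 1.6.5, per the paper's methods and the processing notes. The deposited values are scores on a normalized count scale, rounded to whole numbers, and the normalization method is not given in the sources used here. The paper's methods give an average read depth only, so the depth of each library is unknown. No count model was applied.

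Values were tested with limma 3.58.1 in R 4.3.3 (lmFit, eBayes with trend, all 12 libraries in a single fit) on log2(value + 1), for 13184 genes with at least 10 normalized counts in at least 3 libraries, with two-sided Benjamini-Hochberg adjusted p under 0.05. The script was checked on simulated data. Comparisons were each cytokine against PBS, the cytokines against each other, and the interaction. The 21 alternatives were pseudocounts of 0.1 and 5, quantile and trimmed-mean (TMM) rescaling, a minimum of 50 in place of 10 or no minimum, a fit of the libraries compared alone, the replicate number as a block, a robust fit, and each library left out. Exonic lengths came from GENCODE M21 and promoters from RefSeq. Motifs were searched on both strands. Figures were drawn with matplotlib 3.10.9.

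The 10 genes and the lists were chosen with earlier results of these data known. Of each pathway list, the text names up to 4 genes past the threshold with mOSM or hlOSM against PBS that have a mean of at least 50 and the largest change with hlOSM, plus Tnf, Tnfsf12, Cd40lg, Fasl, Traf1 and Birc2. Genes named outside this rule are marked as such. Of the genes that the rule takes, 1 is not reported here.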

Additional observations from a re-analysis of the deposited data

How the results depend on the processing

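The direction was checked for the 54 gene comparisons that passed the threshold under at least 1 setting, and none of these changed direction. Comparisons that passed under no setting were not checked for it. Of the 54, 46 passed the threshold as reported. Of these, 33 did so under every alternative that could be run, which were 21, or 20 for the low genes that a minimum of 50 removes. The replicate block gave 1 of the 9 genes changed with mLIF, 3 with mOSM, 4 with hlOSM, 2 for mOSM against mLIF, 1 for hlOSM against mLIF, and 0 for hlOSM against mOSM and for the interaction. Same-numbered libraries of different conditions deviated from their condition's mean in opposite directions (18 pairs, correlations −0.406 to −0.151), whereas other pairs had 0.00438 to 0.328 (36 pairs). The numbers were therefore not taken as pairs, but they tie the libraries: they held 1.7% of the spread within conditions, against 25% without any effect of the number, as in values from which such an effect was taken out. Adjusted p without the block then tend to be too small, and the blocked fit called fewer of all genes (1648 raised and 1682 lowered with mOSM, in place of 2031 and 2089). For hlOSM against mLIF the count of 2 was 1 without a filter, with quantile normalization and with the replicate block. With a library left out the count ranged from 1 to 1 for mLIF, 2 to 3 for mOSM, 3 to 6 for hlOSM, 1 to 3 for mOSM against mLIF, 0 to 2 for hlOSM against mLIF and 0 to 1 for the interaction, where fewer libraries enter the fit. As 3 libraries per condition give 8 residual degrees of freedom and the read depth of each library is unknown, small changes in low genes such as Tnfrsf1b and Cd40 were not detectable.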

Other observations

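The genes described here fall outside the naming rule and were chosen after their values were seen. Tnfsf11 (RANKL) was listed at 0 in the 3 PBS libraries, at 0, 1 and 0 in mLIF, at 22, 17 and 18 in mOSM and at 24, 18 and 12 in hlOSM. Tnfrsf11b, its soluble decoy receptor osteoprotegerin, had 13, 19 and 17 normalized counts in PBS, 13, 12 and 23 in mLIF, 50, 37 and 41 in mOSM, and 53, 48 and 32 in hlOSM. Its log2 change in limma was 1.34 ± 0.23 with mOSM (adjusted p = 0.000119) and 1.37 ± 0.23 with hlOSM (adjusted p = 7.05e-05). The signaling receptor Tnfrsf11a (RANK) had at most 4 normalized counts in any library. Tnfsf8, the ligand of CD30, had 0 in every PBS and mLIF library, 12, 15 and 9 with mOSM and 12, 21 and 8 with hlOSM. No fold is given against libraries at 0.

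Tnfsf13b (BAFF), a B-cell survival factor, had 42, 42 and 45 normalized counts in PBS, 37, 37 and 43 in mLIF, 19, 23 and 20 in mOSM, and 37, 31 and 32 in hlOSM. It fell with mOSM by 1.03 on the log2 scale (adjusted p = 1.7e-05) and had −0.36 ± 0.15 with hlOSM (adjusted p = 0.0644), which passed with quantile normalization (adjusted p = 0.0332). Next to Tnfrsf23, its relatives Tnfrsf22 and Tnfrsf26 rose with mOSM by 1.56 ± 0.31 and 0.77 ± 0.22 (adjusted p = 0.000441 and 0.01). The call of Tnfrsf26 was lost without PBS replicate 3 (adjusted p = 0.0684) or mOSM replicate 1 (adjusted p = 0.0611). Reads that align to several of these 3 genes were not counted, so their levels are uncertain. Tnfrsf22 had 8, 9 and 4 normalized counts in PBS and passed the filter through its cytokine libraries alone. Relt rose by 0.86 ± 0.20 with mOSM (adjusted p = 0.00191) and 0.83 ± 0.20 with hlOSM (adjusted p = 0.0021). These sets share their PBS libraries, and the contribution of cell composition was not tested.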
